A study of Equus caballus with 3 samples.

Results

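The D-type cyclins (*CCND1*, *CCND2* and *CCND3*), the kinases they activate (*CDK4* and *CDK6*) and 5 CDK inhibitors (*CDKN1A*, *CDKN1B*, *CDKN1C*, *CDKN2A* and *CDKN2B*) were examined in equine mesenchymal stromal cells (MSCs). These 10 genes were chosen by name, with earlier results of these data known. All 10 had a row among the 29927 gene rows of the 3 deposited matrices. The data came from droplet single-cell RNA sequencing of MSCs cultured for 2 passages from 1 warmblood mare, 10 years of age. Each of 3 sources gave 1 library, namely peripheral blood (PB), bone marrow (BM) and adipose tissue (AT). The labels name no treatment or genetic change for any of the 3 cultures. Titles and methods name these sources, although the deposited source name of all 3 samples is blood mononuclear cells. With 1 library and 1 animal, source cannot be told apart from library or culture, and no test was run across cells.

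D-type cyclins bind CDK4 or CDK6 when growth signals reach a cell in G1, and the active kinases phosphorylate the retinoblastoma protein so that E2F factors can start the genes of DNA replication. The INK4 inhibitors, encoded by *CDKN2A* and *CDKN2B*, bind CDK4 and CDK6 themselves, whereas the CIP/KIP inhibitors p21 (*CDKN1A*), p27 (*CDKN1B*) and p57 (*CDKN1C*) bind complexes of cyclins and CDKs. *CDKN2A* also encodes ARF, which stabilises p53, and *CDKN1A* is a classical p53 target. In cultured stromal cells, *CDKN2A* and *CDKN1A* are widely used as markers of replicative ageing.

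Kept cells had 2500 to 15000 unique molecular identifiers (UMIs) and at most 3% of them on the mitochondrial chromosome. This left 5403 AT-, 5580 BM- and 5318 PB-derived MSCs with 39980656, 40239295 and 41622445 UMIs and a median of 7291, 6874.5 and 7750 UMIs per cell. A level is the sum of a gene's UMIs over the kept cells in counts per 1000000 UMIs (CPM), and 3 UMIs correspond to 0.0750, 0.0746 and 0.0721 CPM. A difference is that of log2(CPM + 1), which understates the change of low genes, and it was counted as past 2-fold from a size of 1 upwards. The 95% intervals, exact Poisson for sums and exact Clopper-Pearson for shares of cells, cover counting error only. All 5318 kept PB barcodes were also present in the AT library, nearly always among AT barcodes under 2500 UMIs, and 37 barcodes were kept in both. AT and BM kept 42 barcodes in common and BM and PB 38. Summed over the 5 MSC markers *ITGB1*, *CD44*, *THY1*, *ENG* and *B2M*, the level was 2744 CPM in AT, 2345 CPM in BM and 2668 CPM in PB. The single markers were less alike than these sums. In AT, BM and PB, *THY1* was at 665, 531 and 90.5 CPM and *CD44* at 691, 285 and 522 CPM. *B2M* was at 1129, 1151 and 1781 CPM, *ITGB1* at 197, 313 and 204 CPM and *ENG* at 62.2, 64.3 and 70.4 CPM. The 4 markers MSCs should lack (*PTPRC*, *CD34*, *CD79A*, *DRA*) summed to at most 1.47 CPM in any source, with *PTPRC* at 0 in each. The 12 haematopoietic markers summed to 8.05 to 16.4 CPM, and the 7 endothelial markers with a row to 1.52 to 5.50 CPM. Of these, 4, 4 and 5 haematopoietic and 3, 3 and 2 endothelial markers were at 0 in AT, BM and PB.

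AT-derived MSCs differed from both other sources in the levels of the D-type cyclins, although every source held UMIs of each. *CCND1* (cyclin D1, chromosome 12) was low in AT, *CCND2* (cyclin D2, chromosome 6) was high there, and *CCND3* (cyclin D3, chromosome 20) was lower in AT than in BM or PB. The INK4 inhibitor *CDKN2A* (chromosome 23) was 10.3-fold higher in BM and 9.07-fold higher in PB than in AT. *CDK4* and *CDK6* lay closer together across the sources, with the highest level of each in BM.

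*CCND1* was at 47.1 CPM (95% interval 45.0 to 49.2) in AT, 338 CPM (95% interval 333 to 344) in BM and 182 CPM (95% interval 178 to 186) in PB. The intervals of the 3 libraries did not overlap, and the difference of log2(CPM + 1) was −2.82 for AT minus BM, −1.93 for AT minus PB and 0.89 for BM minus PB. In AT 17.4% of cells held a *CCND1* UMI, in BM 65.6% and in PB 51.7%, and these shares were 8.62%, 42.5% and 27.7% when every cell was thinned to 2500 UMIs. Within each source *CCND1* had a variance over mean from cell to cell of 1.64 in AT, 1.95 in BM and 1.79 in PB after thinning. Single cells held up to 12, 31 and 30 *CCND1* UMIs.

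*CCND2* was instead highest in AT, with 37.7 CPM (95% interval 35.9 to 39.7) in AT, 11.8 CPM (95% interval 10.7 to 12.9) in BM and 6.34 CPM (95% interval 5.60 to 7.16) in PB. The difference was 1.60 for AT minus BM, or 2.30 without 1 cluster of BM cells described below, and 2.40 for AT minus PB, so that *CCND2* was the only one of the 10 genes past 2-fold higher in AT than in either other source. A *CCND2* UMI was found in 22.5% of cells in AT, compared with 6.95% in BM and 4.68% in PB. *CCND3* was at 34.0 CPM in AT, 88.0 CPM in BM and 73.7 CPM in PB, which gave differences of −1.35 for AT minus BM and −1.09 for AT minus PB.

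**Figure D1:**
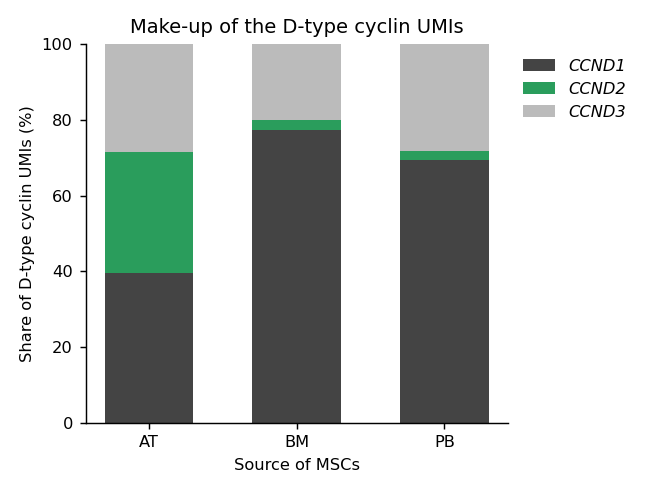
Share (%) of the UMIs of *CCND1*, *CCND2* and *CCND3* together that each gene contributed in the kept cells of AT, BM and PB, 1 library per bar. *CCND2* makes up 31.8% of the AT bar against 2.69% and 2.42% of the BM and PB bars.

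The make-up of the D-type cyclin UMIs followed from these levels. Of 4752 such UMIs in AT, 39.6% came from *CCND1*, 31.8% (95% interval 30.4 to 33.1%) from *CCND2* and 28.6% from *CCND3*. In BM, 77.2% of 17628 UMIs came from *CCND1*, 2.69% (95% interval 2.46 to 2.94%) from *CCND2* and 20.1% from *CCND3*. PB was close to BM in the share of *CCND2* and to AT in that of *CCND3*, with 69.4%, 2.42% (95% interval 2.14 to 2.73%) and 28.2% of 10897 UMIs. The reads are tags of transcript ends whose capture can differ between genes, so these shares compare sources and do not rank the cyclins within a source. The 3 cyclins together summed to 119 CPM in AT, 438 CPM in BM and 262 CPM in PB.

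The catalytic partners varied less. *CDK4* (chromosome 6) was at 261 CPM (95% interval 256 to 266) in AT, 428 CPM (95% interval 422 to 434) in BM and 216 CPM (95% interval 212 to 221) in PB, with a UMI in 79.6%, 89.1% and 76.2% of cells. The largest difference of *CDK4* was 0.98 for BM minus PB, just under the 2-fold limit. *CDK6* (chromosome 4) was at 22.1 CPM in AT, 41.4 CPM in BM and 25.01 CPM in PB. Its AT minus PB difference was −0.17, with counting bounds (−0.35 to 0.01) that included 0. *CDK6* provided 7.80%, 8.83% and 10.4% of the UMIs of both kinases in AT, BM and PB.

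**Figure D2:**
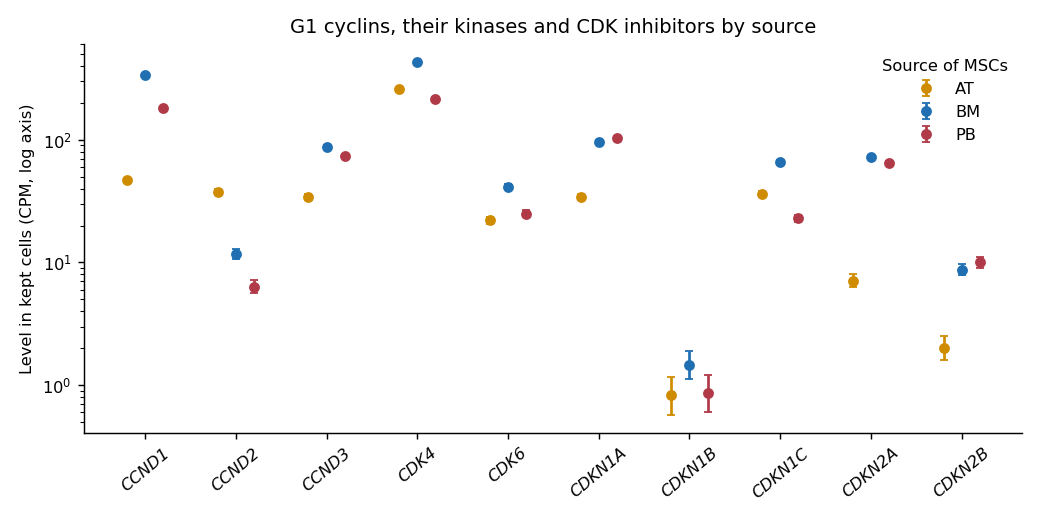
Level of each of the 10 genes in the kept cells of AT, BM and PB in CPM on a log axis, with exact 95% Poisson intervals (counting error only), 1 library per source. AT lies apart from BM and PB for *CCND1*, *CCND2*, *CCND3*, *CDKN1A*, *CDKN2A* and *CDKN2B*, with *CCND2* the only one of these at its highest in AT.

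Among the CIP/KIP inhibitors, *CDKN1A* (p21, chromosome 20) was at 34.3 CPM (95% interval 32.5 to 36.2) in AT, 96.9 CPM (95% interval 93.9 to 100.01) in BM and 103 CPM (95% interval 100.1 to 106) in PB. AT was lower than both, by −1.47 against BM and −1.56 against PB, while BM minus PB was −0.09 and took the other sign without 1 cluster of BM cells described below. *CDKN1A* UMIs were concentrated in fewer cells in BM, where 35.7% of cells held the 3900 UMIs, than in PB, where 45.6% of cells held 4292. After thinning, its variance over mean was 1.92 in BM against 1.24 in PB and 1.23 in AT. *CDKN1C* (p57, chromosome 12) was the one inhibitor with its highest level in BM and its lowest in PB, at 36.1 CPM (95% interval 34.3 to 38.0) in AT, 66.4 CPM (95% interval 63.9 to 68.9) in BM and 22.8 CPM (95% interval 21.4 to 24.3) in PB. BM minus PB was 1.498 for *CDKN1C*, and AT minus BM and AT minus PB were −0.86 and 0.64, or −0.40 and 1.05 with all barcodes of at least 500 UMIs. Without the BM cluster described below, AT minus BM was −1.03, past 2-fold. A pseudocount of 25 CPM in place of 1 brought BM minus PB to 0.93, under the 2-fold limit. *CDKN1B* (p27, chromosome 6) was close to the limit of detection, with 33, 59 and 36 UMIs in all kept cells of AT, BM and PB and a UMI in 0.611%, 1.06% and 0.658% of cells. Its 0.825, 1.47 and 0.865 CPM gave no difference whose counting bounds excluded 0.

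*CDKN2A* showed the widest gap between sources. It was at 7.10 CPM (95% interval 6.30 to 7.98) in AT, 73.0 CPM (95% interval 70.3 to 75.7) in BM and 64.5 CPM (95% interval 62.0 to 66.9) in PB, a difference of −3.19 for AT minus BM and −3.01 for AT minus PB. The share of cells with a *CDKN2A* UMI was 4.81% in AT (95% interval 4.26 to 5.42%), 32.5% in BM (95% interval 31.3 to 33.8%) and 36.6% in PB (95% interval 35.3 to 37.9%), or 1.63%, 14.4% and 14.9% after thinning. The counts do not separate the p16 and ARF transcripts of this gene. Its neighbour *CDKN2B* (p15, chromosome 23) was also lowest in AT, at lower counts, with 80, 351 and 416 UMIs or 2.00, 8.72 and 9.99 CPM in AT, BM and PB. AT minus BM was −1.70 and AT minus PB −1.87 for *CDKN2B*, while the counting bounds of BM minus PB included 0 (−0.18, bounds −0.44 to 0.09). BM and PB also stayed close for *CDKN2A* (0.18), and there TMM factors and DESeq2 size factors turned the sign.

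In AT minus BM, 9 of the 10 genes had the mean of at least 5 CPM over the 3 sources that the background used, with *CDKN1B* below it. *CDKN2B*, at 2.00 CPM in AT, had it only through BM and PB. The filter therefore favoured its calls of lower in AT, as it did for such genes of the background. Of these 9, 1 was past 2-fold higher and 5 past 2-fold lower in AT, against 9.93% of 8426 genes past 2-fold in either direction (2.03% higher and 7.9% lower). In AT minus PB the same 6 genes were past 2-fold in the same directions, against 8.94% of genes (3.55% higher and 5.39% lower). Both comparisons use the AT library, so the second is not a separate observation of AT. The 10 genes were chosen with earlier results of these data known, so these counts describe the 10 genes only. With a pseudocount of 25 CPM, *CCND1*, *CDKN1A* and *CDKN2A* alone were past 2-fold in AT minus BM, and in AT minus PB *CCND3* and *CDKN2B* fell under the limit. *CCND3* also fell under it in AT minus PB (−0.95) with all barcodes of at least 500 UMIs. In BM minus PB only *CDKN1C* of the 9 was past 2-fold, higher in BM, against 7.28% of genes (5.44% higher and 1.84% lower in BM). The median difference of the 9 was −1.35, −1.09 and 0.71 for AT minus BM, AT minus PB and BM minus PB, where the median over all 8426 genes was −0.24, −0.03 and 0.20. TMM factors moved all genes by 0.28, 0.04 and −0.23 in these comparisons, and the 6 genes remained past 2-fold in both comparisons with AT after that shift.

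The share of cells with a UMI of a gene of dividing cells also differed between the cultures. *MKI67* was not analysed here, so dividing cells were taken as those with a UMI of *TOP2A*, the topoisomerase that untangles chromosomes in S and G2/M. AT had 412 such cells (7.63%), BM 709 (12.7%) and PB 315 (5.92%), and 4.02%, 6.29% and 2.93% after thinning. *TOP2A*-positive cells were deeper, with a median of 9102.5, 9573 and 10267 UMIs against 7202, 6640 and 7658 in the rest. By the phase calls described below, the *TOP2A*-negative class still held cells called S or G2/M. Of cells called S, 8.63%, 26.4% and 6.35% were *TOP2A*-positive in AT, BM and PB, and of those called G2/M 24.4%, 47.0% and 16.8%. Among *TOP2A*-negative cells alone the gap between sources was similar, with *CCND1* at 40.7 CPM in AT, 323 CPM in BM and 174 CPM in PB and *CDKN2A* at 6.54, 75.8 and 62.6 CPM. *CCND2* was at 37.9, 10.1 and 6.34 CPM in the *TOP2A*-negative cells of AT, BM and PB.

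*CCND1* was higher in *TOP2A*-positive cells of all 3 sources. It was at 109 CPM against 40.7 CPM in AT (difference 1.40, bounds 1.19 to 1.61), at 413 CPM against 323 CPM in BM (0.35, bounds 0.27 to 0.43) and at 277 CPM against 174 CPM in PB (0.67, bounds 0.53 to 0.80). With *TOP2A*-negative cells weighted to the depth of the positive ones, the differences were 1.36, 0.26 and 0.24. With all barcodes of at least 500 UMIs, the difference in AT was 0.95, under the 2-fold limit. Even in *TOP2A*-positive cells, *CCND1* of AT stayed below the *TOP2A*-negative cells of BM and PB. A *CCND1* UMI was found in 35.9% of *TOP2A*-positive and 15.9% of other AT-derived MSCs, and in 18.0% and 7.85% after thinning.

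*CCND3*, *CDK4* and *CDK6* were all higher in *TOP2A*-positive cells by less than 2-fold. *CDK4* varied least between sources, with differences of 0.48, 0.56 and 0.59 in AT, BM and PB, from 252, 396 and 208 CPM in negative to 352, 586 and 314 CPM in positive cells. Over the alternatives these differences ranged from 0.19 to 0.59 in AT, 0.51 to 0.63 in BM and 0.19 to 0.75 in PB. *CCND3* was 0.40, 0.73 and 0.58 higher, and *CDK6* 0.47, 0.46 and 0.80 higher, in the same order. By the called phases described below, *CCND3* of AT was at 33.6 CPM in G1, 37.4 CPM in S and 30.6 CPM in G2/M. Its AT difference took the other sign (−0.13) in the lowest alternative. *CCND2* was almost level between the classes in AT (35.8 CPM in positive and 37.9 CPM in negative cells) and in PB (6.36 and 6.34 CPM), and higher in positive cells of BM (20.2 against 10.1 CPM, difference 0.94). Weighted to equal depth, the *CCND2* difference of BM was 0.34 and that of *CDK6* 0.30, and without the BM cluster described below that of *CCND2* was −0.21.

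**Figure D3:**
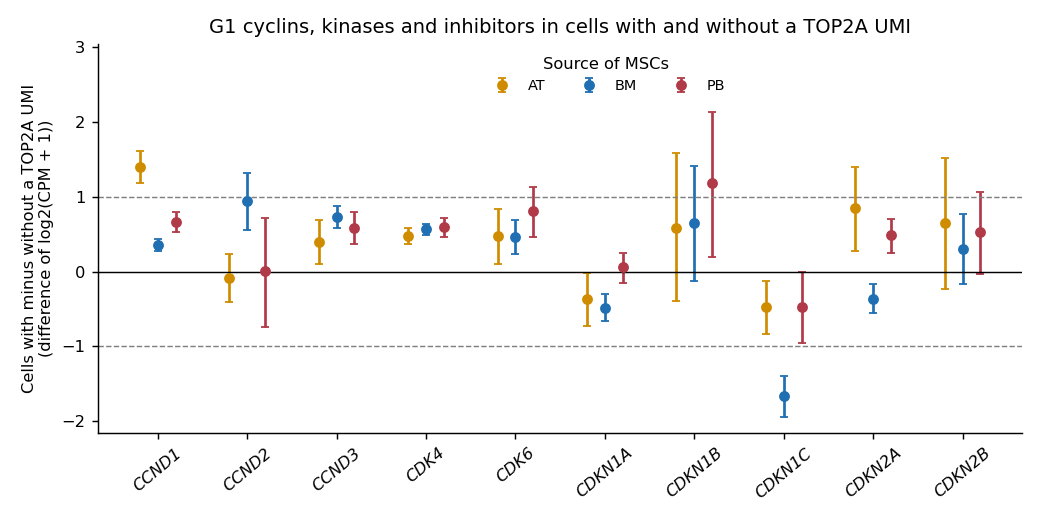
Difference of log2(CPM + 1) between cells with and without a *TOP2A* UMI for the 10 genes in AT, BM and PB, with bounds set by the exact 95% Poisson intervals of both sums (counting error only) and dashed lines at 2-fold. *CCND1* of AT (1.40), *CDKN1C* of BM (−1.67) and the sparsely counted *CDKN1B* of PB (1.18) lie outside the dashed lines.

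*CDKN1C* was lower in *TOP2A*-positive cells of all 3 sources, and past 2-fold lower in BM. It was at 22.9 CPM in *TOP2A*-positive and 75.1 CPM in negative cells of BM (difference −1.67, bounds −1.95 to −1.39), at 26.5 and 37.1 CPM in AT (−0.47) and at 16.5 and 23.4 CPM in PB (−0.47). Weighted to equal depth, the 3 differences were −1.20 in BM, −0.40 in AT and −0.11 in PB. Its level in *TOP2A*-positive cells ranged from 16.5 to 26.5 CPM over the sources, and in negative cells from 23.4 to 75.1 CPM. Whether the difference itself varies between sources was not tested. *CDKN1A* was lower in positive cells of AT (27.0 against 35.1 CPM, −0.37) and BM (72.6 against 102 CPM, −0.48), and nearly equal in PB (107 against 103 CPM, 0.05). Without the BM cluster described below, the BM difference of *CDKN1A* was −0.19.

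*CDKN2A* did not follow *CDKN1C*. It was higher in *TOP2A*-positive cells of AT (12.6 against 6.54 CPM, difference 0.85) and PB (87.8 against 62.6 CPM, 0.48) and lower in those of BM (58.8 against 75.8 CPM, −0.36), where the difference was 0.04 without the BM cluster described below. With all barcodes of at least 500 UMIs the difference in AT was 0.31. In PB, 55.6% of positive and 35.4% of negative cells held a *CDKN2A* UMI, and 19.7% and 14.6% after thinning. *CDKN2B* was 0.65, 0.31 and 0.52 higher in positive cells of AT, BM and PB, each with counting bounds that included 0. *CDKN1B* was past 2-fold in PB only (1.18, bounds 0.19 to 2.14) and rested there on 9 UMIs in positive and 27 in negative cells, at a mean below the 5 CPM of the background.

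With *TOP2A* itself left out, 4.78% of 8206 genes in AT, 6.67% of 8792 in BM and 5.55% of 8375 in PB were past 2-fold between the classes. Higher and lower in *TOP2A*-positive cells were 4.56% and 0.219% of genes in AT, 5.19% and 1.48% in BM and 5.12% and 0.43% in PB. Of the 10 genes, 8, 9 and 9 had the mean CPM this background asked for, and past 2-fold were *CCND1* alone in AT, *CDKN1C* alone in BM and none of the 9 in PB. The cyclins and kinases of later phases differed in full: all 16 of 16 listed genes were past 2-fold higher in *TOP2A*-positive cells of each source, led by *CDK1* (4.74, 3.90 and 4.62 in AT, BM and PB) and *CCNA2* (4.52, 3.40 and 3.82). So were 18 of 18, 18 of 18 and 17 of 17 DNA replication genes, among them *RRM2*, the small subunit of ribonucleotide reductase (3.01, 2.35 and 3.12). *TOP2A* is itself a gene of S and G2/M, so the choice of classes favoured this direction in advance. These counts describe the classes only. Some genes of these lists and of those below passed the mean only through positive cells, such as *CCNF* of AT (20.3 against 0.635 CPM).

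Called cell cycle phases resolved the pattern further. The calls were made without *TOP2A* and with none of the 10 genes, and G1, S and G2/M took 3107, 1333 and 963 AT-, 3738, 1044 and 798 BM- and 2994, 1228 and 1096 PB-derived MSCs. Cells called G1 were 57.5% in AT, 67.0% in BM and 56.3% in PB, so BM had the lowest share called S or G2/M although its share of *TOP2A*-positive cells was the highest. Scores were computed within each source, so shares of called phases are not on a common scale across sources. *CCND1* peaked in cells called S in each source, at 25.1, 96.1 and 51.9 CPM in G1, S and G2/M of AT, 287, 521 and 301 CPM in BM and 148, 230 and 220 CPM in PB. The S and G2/M intervals of PB overlapped. *CCND3* of BM had the same shape, at 71.3, 134 and 92.9 CPM.

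*CDKN1C* of BM was at 87.3 CPM in G1, 37.8 CPM in S and 23.3 CPM in G2/M, whereas in AT it was at 37.6, 36.9 and 29.9 CPM. *CDKN1A* of BM was at 113 CPM in G1 against 72.5 CPM in S and 65.0 CPM in G2/M, and in PB it was at 99.8, 115 and 98.3 CPM. *CDKN2A* was highest in G1 in BM (83.0, 55.4 and 57.1 CPM) but lowest in G1 in PB (58.9, 67.5 and 76.6 CPM) and in AT (5.77, 8.45 and 9.76 CPM). The BM cluster described below was low in *CDKN2A*, *CDKN1A* and *CDKN1C*. By calls that kept *TOP2A* among the scored genes, 89.8% of its cells were S or G2/M. The part of this cluster in the BM phase levels was not tested. Within cells called G1, *CCND2* was at 35.9 CPM in AT, 8.42 CPM in BM and 6.39 CPM in PB.

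**Figure D4:**
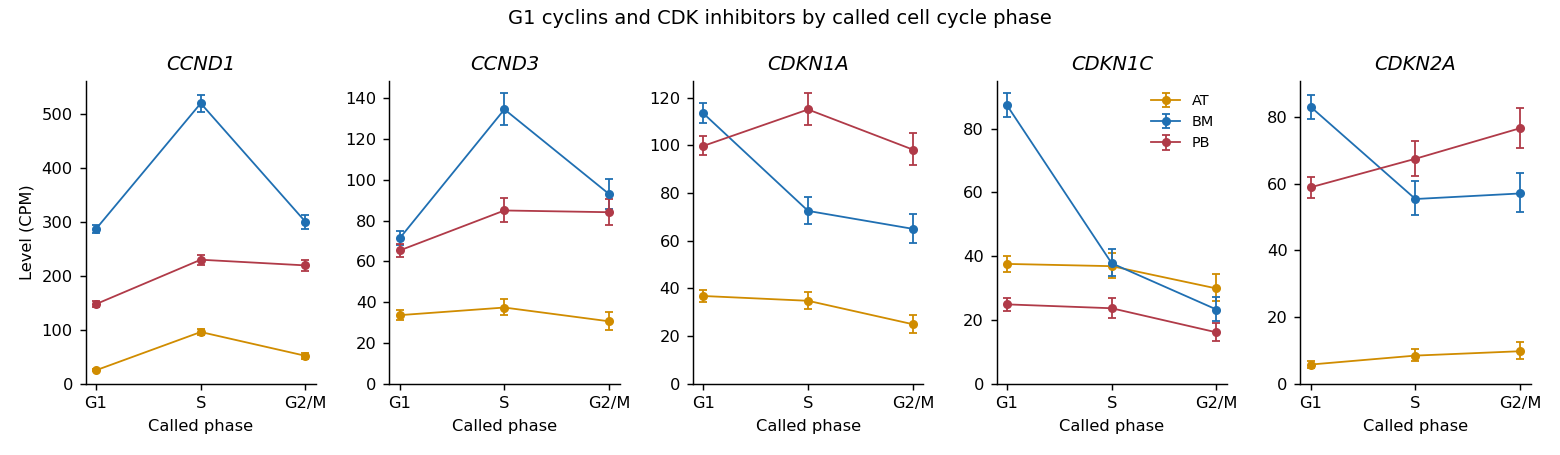
Level (CPM) of 5 of the genes in cells called G1, S and G2/M in AT, BM and PB, with exact 95% Poisson intervals (counting error only). *CCND1* is highest in cells called S, at 521 CPM in BM, while *CDKN1C* of BM goes from 87.3 CPM in G1 to 23.3 CPM in G2/M.

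Cells of each source were clustered again with the 10 genes removed from the variable genes, which gave 7 AT, 8 BM and 10 PB clusters, 23 of them with at least 100 cells. They are named by number and leading genes. The highest *CCND1* of each source was in a cluster with genes of dividing cells among its leading genes, at 193 CPM in AT cluster 6 (*TOP2A*, *UBE2C*, *CKS2*), 587 CPM in BM cluster 3 (*TOP2A*, *CENPF*, *UHRF1*) and 508 CPM in PB cluster 5 (*UBE2C*, *CKS2*, *TOP2A*). A cluster of each source led by *CDC20*, *CDKN3* and *CDCA3* or by part of them held 66.6 CPM in AT (cluster 2), 206 CPM in PB (cluster 3) and 229 CPM in BM (cluster 6). In BM this was under clusters 1, 4 and 5 (460, 392 and 401 CPM). The lowest were 13.1 CPM in AT cluster 4 (*SCARA5*, *IGF2*), 158 CPM in BM cluster 0 (*IBSP*, *SPP1*) and 77.6 CPM in PB cluster 2. *CCND1* thus varied 14.7-fold among the AT clusters, 3.70-fold in BM and 6.55-fold in PB. The contractile AT cluster 1 (*DES*, *ACTG2*, *ACTA2*) held 17.9 CPM of *CCND1* but 49.4 CPM of *CCND3*, and AT cluster 5 (*ID1*, *ID3*) held 64.4 CPM of *CCND1* at 24.6 CPM of *CCND3*.

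*CDKN1A* and *CDKN2A* had their BM maximum in the same cluster. BM cluster 2 (*IGF2*, *EDNRA*, *SCARA5*, 930 cells, of which 2.37% were *TOP2A*-positive) held 172 CPM of *CDKN1A*, 103 CPM of *CDKN1C* and 99.3 CPM of *CDKN2A*, the highest of the 7 large BM clusters for each, although *CDKN1C* of BM cluster 1 (101 CPM) lay within counting error. In PB, the cluster of dividing cells (cluster 5) had the highest *CDKN1A* (141 CPM) and *CDKN2A* (83.9 CPM) and the lowest *CDKN1C* (9.87 CPM). PB cluster 5 also had the highest *CCND1*, *CCND3* (147 CPM) and *CDK6* (55.7 CPM).

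BM cluster 4 stood apart from the other BM cells for several of the genes. It was led by unnamed genes with *CALCA*, *PDLIM3* and *IGFBP5*. After the data were seen, it was picked as the BM cluster of at least 100 cells lowest in *JAM2*, a junctional adhesion molecule. Its *JAM2* level was 30.3 CPM against 533 CPM in the other 4930 BM cells, a gap that follows from this choice. Its 650 cells held 39.0 CPM of *CCND2* (95% interval 34.2 to 44.2) against 6.89 CPM (95% interval 6.04 to 7.83) in the other BM cells, a level inside the range of the AT clusters (25.5 to 47.9 CPM). These cells, 11.6% of the BM-derived MSCs, provided 239 of the 474 *CCND2* UMIs of BM. *CDKN2A* was at 28.7 CPM against 80.9 CPM, *CDKN1A* at 47.3 against 106 CPM and *CDKN1C* at 18.6 against 74.9 CPM. *CCND1* was not low there (392 against 329 CPM), so *CCND2* made up 7.34% of its D-type cyclin UMIs against 1.64% elsewhere in BM.

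This cluster was rich in dividing cells, with a *TOP2A* UMI in 41.2% of them and a median of 9467.5 UMIs per cell. Inside the cluster, *CCND2* was at 39.8 CPM in positive and 38.3 CPM in negative cells, and outside it at 5.93 and 7.01 CPM. *CDKN2A* was at 25.7 and 31.3 CPM inside and at 83.0 and 80.6 CPM outside. Without the cluster, the difference between positive and negative cells of BM was −0.21 for *CCND2* and 0.04 for *CDKN2A*, compared with 0.94 and −0.36 with it. That of *CDKN1A* was −0.19 against −0.48, and that of *CDK6* 0.26 against 0.46. *CDKN1C* kept its difference without the cluster (−1.63), with 25.5 CPM in positive and 81.3 CPM in negative cells, and inside the cluster it was low in both (19.4 and 17.9 CPM).

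**Figure D5:**
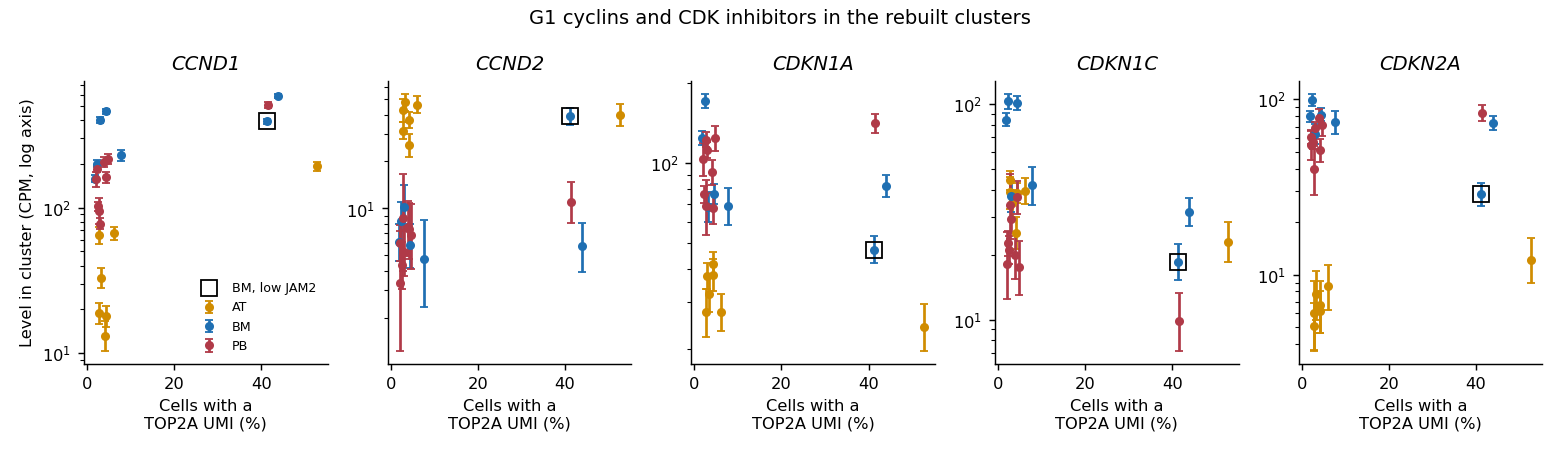
Level (CPM, log axis) of 5 of the genes in each rebuilt cluster of at least 100 cells against the share (%) of its cells with a *TOP2A* UMI, coloured by source, with exact 95% Poisson intervals (counting error only) and a black square around BM cluster 4, low in *JAM2*. For *CCND2* this cluster, at 39.0 CPM, lies among the AT clusters, and for *CDKN2A*, at 28.7 CPM, it lies below the other BM clusters.

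Across the 23 clusters, after each source's mean was taken out, *CDK4*, *CDK6*, *CCND1* and *CCND3* varied together. Pearson's r was 0.82 for *CDK4* with *CDK6*, 0.79 for *CCND1* with *CDK6* and 0.78 for *CCND1* with *CDK4*. For *CCND3* it was 0.78 with *CDK6*, 0.64 with *CDK4* and 0.63 with *CCND1*. *CDKN1C* ran against them, with r of −0.68 with *CDK6*, −0.62 with *CCND3*, −0.61 with *CDK4* and −0.45 with *CCND1*. *CDKN1A* and *CDKN2A* had an r of 0.50. Clusters of a source share a library and differ in depth, so these values describe the 23 points only. Likeness to other genes was ranked over the clusters of all sources with the source means left in, so that these r also hold the differences between sources. Among 4532 genes, the profiles most like *CCND1* were those of *COMMD2* (r of 0.94), eca-mir-1892 (0.93) and *TIA1* (0.93). For *CCND3* they were *ARPC5*, *GNG2* and *HRAS* (0.93 to 0.91), for *CDK4* *SLC39A10*, *RNASEH1* and *NTMT1* (0.96 to 0.95) and for *CDK6* *MAP2K1*, *TFDP1* and *RRP1B* (0.91 to 0.90). *CDKN1A* was most like *PAPSS2*, *SIDT2* and *SEC61B* (each 0.91), *CDKN1C* most like *APPL2*, *NPC2* and *AK3* (0.89 to 0.87), and *CDKN2A* most like ENSECAG00000010565, *EDIL3* and *EPHA2* (0.98 to 0.97). With the source means taken out, r was lower for each of these genes, at 0.88, 0.84 and 0.80 for the 3 genes of *CCND1*, 0.61, 0.65 and 0.65 for those of *CDKN1A* and 0.83, 0.67 and 0.76 for those of *CDKN2A*.

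Other regulators around the G1/S transition were seldom past 2-fold between AT and the other sources, at shares near those over all genes. Of 17 such genes with the mean CPM of the background, 0 were past 2-fold higher in AT than in BM and 2 were lower, which were *CCNE1* (cyclin E1, 3.48 against 9.44 CPM) and *CDK2*, its kinase (5.43 against 14.8 CPM), where 9.93% of all genes were past 2-fold in either direction. Both are named after their values were seen. *CCNE1* had that mean only through BM, so the filter favoured its call. Against PB, 1 was higher and 0 were lower in AT, where 8.94% of all genes were past 2-fold. That 1 gene was *CDKN2C*, the INK4 inhibitor p18, at 111 CPM in AT, 82.7 CPM in BM and 33.5 CPM in PB, the reverse of the order of *CDKN2A* between AT and PB. It was also 0.83, 2.06 and 2.89 higher in *TOP2A*-positive cells of AT, BM and PB. *CKS1B*, a CDK-binding subunit, was 2.41, 2.17 and 3.00 higher, while *E2F4*, a repressor E2F, was 0.60, 0.87 and 0.34 higher. *MYC* was at 21.7, 23.9 and 11.3 CPM and *TFDP1*, the partner of E2F, at 27.4, 50.5 and 32.1 CPM. *CCNE1*, *CDKN2C* and *MYC* were the 3 of 17 past 2-fold higher in BM than in PB, against 5.44% of all genes, and 0 were lower. The call of *CCNE1* again rests on a mean passed only through BM. In all, 2 of 15 of these regulators in AT, 7 of 20 in BM and 5 of 19 in PB were past 2-fold higher in *TOP2A*-positive cells, against 4.56%, 5.19% and 5.12% of all genes, and none was lower. Among these, *CDK2* of AT, *CCNE2*, *E2F1* and *SKP2* of BM and *CCNE1* and *CCNE2* of PB passed the mean only through positive cells. The filter favoured their calls, and they are named after their values were seen.

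Part of the genes of later phases were past 2-fold lower in AT or in PB than in BM. Of 13 S and G2/M cyclins and kinases, 5 were past 2-fold lower in AT than in BM, 0 differed between AT and PB, and 10 were higher in BM than in PB, *CDK1* being at 19.6, 43.3 and 12.3 CPM in AT, BM and PB. Of 17 DNA replication genes, the same comparisons gave 7 lower in AT, 0, and 9 higher in BM, against 7.9% of all genes lower in AT than in BM and 5.44% higher in BM than in PB. *CDC6*, counted as higher in BM than in PB, also had the mean only through BM (3.85, 8.67 and 3.22 CPM). So did *AURKB*, counted both as lower in AT than in BM and as higher in BM than in PB. *UHRF1*, counted as lower in AT (4.90 CPM) than in BM, had the mean only through BM and PB. *MCM2*, counted as higher in BM than in PB (3.65 CPM), had it only through AT and BM. The filter therefore favoured these calls. Levels of *CDC25B*, a phosphatase that activates CDKs (81.0, 63.2 and 54.2 CPM in AT, BM and PB), and of *RFC2*, a subunit of the clamp loader (63.4, 45.9 and 34.9 CPM), were instead highest in AT, and both are named after their values were seen. The share of *TOP2A*-positive cells moved with these counts, from 7.63% in AT to 12.7% in BM and 5.92% in PB, and its part in them was not tested.

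Of 14 p53 targets with the mean CPM of the background, *PLK2* and *BAX* were past 2-fold lower in AT than in BM and *PLK2* and *FAS* (a death receptor, 3.95 against 11.9 CPM, named after its values were seen) in AT than in PB, with 0 between BM and PB. *FAS*, at 6.49 CPM in BM, had the mean only through BM and PB, so the filter favoured its call. These counts stand against 7.9% of all genes lower in AT than in BM and 5.39% lower in AT than in PB. *PLK2*, a polo-like kinase, was at 14.3, 55.8 and 47.0 CPM in AT, BM and PB, which is the order of AT against the rest that *CDKN1A* had, and *BAX*, a promoter of apoptosis, was at 43.4, 104 and 62.5 CPM. Between the *TOP2A* classes, 0 of 13 targets in AT, 0 of 14 in PB and 1 of 14 in BM were past 2-fold, this 1 being *GADD45A*, a growth arrest gene, at −1.09, where 1.48% of all genes were lower in positive cells. Of 10 quiescence and growth arrest genes, a list that also holds *CDKN2C*, 0 were past 2-fold between AT and BM, *CDKN2C* and *TXNIP* were higher and *BTG1* was lower in AT than in PB, and *CDKN2C* was higher and *KLF4* (51.6 against 115 CPM) lower in BM than in PB. Over all genes, 3.55% were higher in AT than in PB, and 5.44% were higher and 1.84% lower in BM than in PB. *TXNIP*, an inhibitor of thioredoxin, was at 75.6, 42.2 and 23.6 CPM and *BTG1*, an antiproliferative gene, at 59.8, 100.2 and 146 CPM in AT, BM and PB. Between the *TOP2A* classes, 2 of 11, 3 of 11 and 2 of 10 of these genes were past 2-fold higher in positive cells of AT, BM and PB, against 4.56%, 5.19% and 5.12% of all genes. Apart from *CDKN2C* these were *LIN9* and *LIN54*, subunits of the complex that regulates cell cycle genes, chosen after their values were seen. *LIN9* of AT and BM and *LIN54* of AT and PB passed the mean only through positive cells. The filter therefore favoured these calls, which include both of those in AT.

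A list of genes associated with senescence holds 3 of the 10 genes (*CDKN1A*, *CDKN2A* and *CDKN2B*). Apart from these, 7 of its genes had the mean CPM of the background, and 2 of them were past 2-fold lower in AT than in BM. These were *IGFBP7*, an insulin-like growth factor binding protein (1.15 against 20.4 CPM), and *HMGA2*, a chromatin protein (1.80 against 8.70 CPM). *IGFBP7* had the mean only through BM and *HMGA2* only through BM and PB, so the filter favoured their calls. Against PB, *HMGA2* was lower in AT (5.89 CPM in PB), while *IGFBP7*, with only 3 UMIs or 0.0721 CPM in PB, was counted past 2-fold higher in both AT and BM. Over all genes, 7.9% were lower in AT than in BM and 5.39% lower in AT than in PB. Both are named after their values were seen. *LMNB1*, a nuclear lamina gene known to fall in senescent cells, was at 9.33, 18.4 and 8.77 CPM in AT, BM and PB, and 1.98, 1.97 and 2.11 higher in *TOP2A*-positive cells. Between the classes, 3 of 6 of these genes in AT, 4 of 9 in BM and 4 of 8 in PB were past 2-fold higher, against 4.56%, 5.19% and 5.12% of all genes, and none was lower. *LMNB1* and *HMGB2* (2.85, 2.74 and 2.35 in AT, BM and PB) were among them in each source. As the list holds genes that fall in senescent cells, such as *LMNB1*, these counts do not measure senescence. *IGFBP3* of AT (11.5 against 3.39 CPM) and *CXCL8* of BM (10.4 against 1.64 CPM) passed the mean only through positive cells.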

How the data were processed

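Single-cell libraries (10x Genomics 3′, v2) of AT-, BM- and PB-derived MSCs were deposited as matrices of raw UMI counts, whole numbers that had not been normalized. Per the labels and the methods, the authors had assigned and mapped reads with CellRanger to EquCab3.0 and counted UMIs with ESAT, which adds reads just downstream of a gene and leaves out exons that overlap on opposite strands. The study's multiplet caller was not run here, so multiplets it would call may be present. The upper UMI limit was the only step against doublets, with removal of the 5% highest Scrublet scores (Scanpy 1.11.5) as an alternative.

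The sources were taken from the sample titles. UMIs were summed over kept cells and given in CPM, and counting bounds of a difference are the extremes of both exact 95% intervals (SciPy 1.17.1). Such bounds are wider than a 95% interval of the difference itself. Bounds that include 0 therefore do not show that levels are equal. Background shares used genes with a mean of at least 5 CPM over the groups compared. The matrices held 11757, 6455 and 6180 barcodes with at least 197 UMIs. Thinning drew 2500 UMIs per cell without replacement. Background from free RNA was not measured, since the cultures held no identified cells expected to be free of these genes. Phases were called per cell from S and G2/M genes without *TOP2A*, except for the share given for BM cluster 4, which kept it. Clusters (Seurat 5.3.0, sctransform 0.4.2, R 4.3.3) used 3000 variable genes less the 10 genes, 20 neighbours and a resolution of 0.6. These versions are later than the study's. edgeR 4.0.16 gave TMM factors and DESeq2 1.42.0 size factors, and neither was used for a test. On simulated counts with 100 genes raised and 100 lowered, 100 and 100 were recovered in each of the 6 comparisons, with 2 and 4 unchanged genes called between the *TOP2A* classes of AT and PB, which checks the arithmetic only.

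The 10 genes and all lists were chosen with earlier results of these data known, and *CCND1*, *CDKN1A* and *CDKN2A* are in gene lists that the study drew from these libraries. Named besides them are, per list, up to 4 genes with the largest difference between sources (from a mean of 10 CPM) and up to 3 with the largest mean difference between *TOP2A* classes, as far as space allowed, and, for the 7 of the 10 genes with a mean of at least 20 CPM over the sources, the 3 genes most like each over clusters. The alternatives were thinning, a lower limit of 500 UMIs, no upper or mitochondrial limit, fewer likely doublets, TMM and DESeq2 scaling, means of the CPM of single cells, a pseudocount of 25 CPM, *TOP2A*-negative cells only, no barcodes shared between libraries, other rules for dividing cells, equal depth, no low-level filter, 2 UMIs and resolutions of 0.4 and 0.8. Those with S or G2/M alone against G1, without barcodes kept in another library and without BM cluster 4 were added after seeing the data. *MKI67*, *CDKN2D*, *TNFRSF10B*, *EDA2R*, *BBC3* and *EMCN* were not analysed here.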

Additional observations from a re-analysis of the deposited data

Results flagged for a closer look

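*CDKN2A* differed in direction between the cultures when cells with a *TOP2A* UMI were set against the rest: the difference of log2(CPM + 1) was 0.85 in AT, −0.36 in BM and 0.48 in PB, each with counting bounds that excluded 0. The difference between sources was not tested. Without BM cluster 4, the BM value was 0.04, and with all barcodes of at least 500 UMIs the AT value was 0.31.

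AT barcodes under 2500 UMIs, which entered the results above only where all barcodes of at least 500 UMIs were taken, held the genes at other levels than the kept AT-derived MSCs where another library, nearly always PB, had the same barcode. In these 5716 barcodes, *CCND1* was at 198 CPM, *CCND3* at 76.4 CPM, *CDKN1A* at 110.5 CPM, *CDKN2A* at 61.5 CPM and *CDKN2B* at 8.33 CPM, all higher than in kept AT-derived MSCs (47.1, 34.0, 34.3, 7.10 and 2.00 CPM). *CCND2* was lower, at 9.55 CPM against 37.7 CPM. The PB-derived MSCs had 182, 73.7, 103, 64.5 and 9.99 CPM of the first 5 genes and 6.34 CPM of *CCND2*. In the 439 AT barcodes under 2500 UMIs that no other library held, *CCND1* was at 46.2 CPM, *CCND2* at 31.4 CPM and *CDKN2A* at 9.91 CPM, but *CDKN1C* was at 335 CPM (95% interval 291 to 385) against 36.1 CPM in kept AT-derived MSCs. Kept AT barcodes that another library shared, 119 in number, had 96.1 CPM of *CCND1* and 12.5 CPM of *CDKN2A*, where the other 5284 had 46.1 and 6.99 CPM. What sets the levels of these barcodes was not tested.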

How the results depend on the processing

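No paired analysis was possible because each source had 1 library and no test was run. Of 30 differences between sources, 13 were past 2-fold, and over 360 alternative values 352 had the sign of the value reported, 8 the other, 7 calls were lost and 3 gained. Of 30 differences between *TOP2A* classes, 3 were past 2-fold, and over 400 alternative values 381 had the same sign, 19 the other, 8 calls were lost and 6 gained. No difference past 2-fold changed sign. With a pseudocount of 25 CPM, which shrinks every difference, the number of the 10 genes past 2-fold went from 6 to 3 in AT against BM (*CCND2*, *CCND3* and *CDKN2B* lost), from 6 to 4 in AT against PB (*CCND3* and *CDKN2B* lost), from 1 to 0 in BM against PB and from 1 to 0 between classes in PB. Thinning to 2500 UMIs gave 2 in BM against PB, and 3, 2 and 0 between classes in AT, BM and PB, where 1 had been past 2-fold each time. All barcodes with at least 500 UMIs took *CCND3* under 2-fold (−0.95) and *CDKN1C* past it (1.05) in AT against PB and gave 0 in AT and 2 in BM between classes, no upper UMI limit 2 in BM, and G2/M against G1 2 in BM and 0 in PB. In PB, S against G1, S or G2/M against G1, equal depth and removal of the 5% highest Scrublet scores gave 0 each. The only call in PB was *CDKN1B*, with 36 UMIs in all. The causes of the other changes were not tested. The highest level over clusters stayed in its interval for 25 of 30 values at resolution 0.4 and 30 of 30 at 0.8. Removing all barcodes shared with another library left no PB-derived MSCs, so it was not run for PB, *MKI67* alone was not run, and *TOP2A* alone is the class used. Levels rest on 1 library per source, so differences smaller than those between cultures of 1 source cannot be recognised.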
